A study of Homo sapiens with 2 samples.

Results

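The genes described here are 43 protein-coding genes of NF-kB, cytokine and interferon signalling, taken by name from a fixed list and set among 19974 protein-coding genes on chromosomes 1 to 22 and X. They comprise 12 transcription factors, 4 kinases or kinase subunits, 4 receptors, 6 adaptors and ubiquitin ligases, 3 inhibitors, 11 cytokines and chemokines and 3 other induced genes. They were examined in PANC-1, an established line from a human pancreatic ductal adenocarcinoma, by ChIPmentation, in which Tn5 transposase adds sequencing adapters to immunoprecipitated chromatin. Cells received inflachromene, a compound known to bind the chromatin proteins HMGB1 and HMGB2, or its solvent DMSO, and both groups were fixed with EGS followed by formaldehyde. Each group is 1 sample, represented by a deposited peak list. The sources used here give neither the dose, nor the time, nor the protein that the antibody recognised, so a peak stands for enriched fragments and not for a named factor.

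NF-kB dimers are built from RELA, RELB, REL, NFKB1 and NFKB2 and are held in the cytoplasm by inhibitors such as the product of NFKBIA. Receptors of cytokines and of danger signals, among them AGER, TLR2 and TLR4, which bind extracellular HMGB1, activate the IKK complex of CHUK, IKBKB and IKBKG. IKK marks the inhibitor for destruction, and freed dimers induce cytokine genes as well as NFKBIA itself. Interferon and IL-6 family receptors act through JAK kinases on STAT proteins, and SOCS3 limits that signal. Pancreatic cancer cells are known for active NF-kB and STAT3 signalling.

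On the chromosomes analysed the inflachromene list had 10836 peaks and the DMSO list 15186, and the inflachromene library was inferred to hold 0.964 times as many fragments as the DMSO library. For each summit, the pileup, meaning the number of overlapping fragments, was worked out from the authors' fold enrichment and p-value. With no replicate, every difference below compares these libraries and has no test, and intervals cover counting error only. A peak was assigned to a gene where its summit lay within 1 kb of either end of the RefSeq gene, and peak positions are those of the deposited lists (hg38). Of 7 epithelial and ductal marker genes, 3 had an inflachromene peak at an end and 4 a DMSO peak. KRT8, KRT18, KRT19 and SOX9 had one in at least 1 list, while KRT7, EPCAM and CDH1 had none. Of 10 immune marker genes, 3 had an inflachromene peak and 2 a DMSO peak. CD14, SPI1 and CD68 had one in at least 1 list, and PTPRC, CD3E, LYZ, ITGAM, CD4 and MS4A1 were among those without. Of 3 mesenchymal marker genes, 1 had an inflachromene peak and 2 a DMSO peak. Of 7 fibroblast and endothelial ones, 0 had an inflachromene peak and 1 a DMSO peak. Over all genes the shares were 38.2% in inflachromene and 45.8% in DMSO, and no cell type is read from these small counts.

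Promoter sequence is shown for 7 members on which the results turn. NFKBIA had peaks in DMSO only, REL had the lowest ratio of inflachromene to DMSO pileup, BIRC3 had nearly equal pileups, and STAT3 had the highest pileup. IL6ST was higher in inflachromene, CXCL8 was the cytokine with a peak at its start, and CXCL1 was a cytokine with none. The sequences come from RefSeq, and each runs 5′ to 3′ on the gene's strand, 250 bases before and 50 after the RefSeq start, in GRCh38.p14. Capitals mark matches on either strand to the kappa B consensus bound by NF-kB, to the AP-1 site TGANTCA or to the consensus of the interferon-stimulated response element (ISRE). The windows are chr14:35404700-35404999 (minus strand) for NFKBIA, chr2:60881324-60881623 (plus) for REL and chr11:102317234-102317533 (plus) for BIRC3. They are chr4:73740319-73740618 (plus) for CXCL8, chr4:73869143-73869442 (plus) for CXCL1, chr17:42388393-42388692 (minus) for STAT3 and chr5:55994914-55995213 (minus) for IL6ST.
NFKBIA: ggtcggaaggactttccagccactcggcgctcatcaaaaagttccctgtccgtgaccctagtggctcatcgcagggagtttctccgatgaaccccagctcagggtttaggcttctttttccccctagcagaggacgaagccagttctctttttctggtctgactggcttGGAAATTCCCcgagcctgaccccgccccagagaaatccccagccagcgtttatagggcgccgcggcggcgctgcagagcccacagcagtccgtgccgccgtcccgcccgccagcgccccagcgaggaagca
REL: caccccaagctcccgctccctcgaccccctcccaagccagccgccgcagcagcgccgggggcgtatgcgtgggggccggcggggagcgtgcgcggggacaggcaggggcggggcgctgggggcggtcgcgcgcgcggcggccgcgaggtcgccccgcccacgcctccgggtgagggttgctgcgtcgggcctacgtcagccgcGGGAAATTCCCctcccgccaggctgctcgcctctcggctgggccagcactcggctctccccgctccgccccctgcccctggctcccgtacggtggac
BIRC3: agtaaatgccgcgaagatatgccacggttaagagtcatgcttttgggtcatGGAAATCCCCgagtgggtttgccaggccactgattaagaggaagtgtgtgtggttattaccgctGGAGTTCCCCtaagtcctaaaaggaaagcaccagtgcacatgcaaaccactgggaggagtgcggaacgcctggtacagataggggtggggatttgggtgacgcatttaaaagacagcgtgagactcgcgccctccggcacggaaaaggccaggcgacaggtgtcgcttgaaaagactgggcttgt
CXCL8: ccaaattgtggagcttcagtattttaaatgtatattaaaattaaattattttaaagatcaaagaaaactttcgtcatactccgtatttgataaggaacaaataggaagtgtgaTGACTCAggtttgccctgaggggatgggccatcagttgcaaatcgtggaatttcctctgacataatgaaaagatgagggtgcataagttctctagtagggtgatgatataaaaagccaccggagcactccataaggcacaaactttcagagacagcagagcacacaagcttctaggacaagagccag
CXCL1: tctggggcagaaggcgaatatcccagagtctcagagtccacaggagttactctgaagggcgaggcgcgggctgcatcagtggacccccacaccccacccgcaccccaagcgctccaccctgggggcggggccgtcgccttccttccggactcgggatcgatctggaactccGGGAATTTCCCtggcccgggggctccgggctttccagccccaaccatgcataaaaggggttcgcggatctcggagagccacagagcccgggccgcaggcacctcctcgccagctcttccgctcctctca
STAT3: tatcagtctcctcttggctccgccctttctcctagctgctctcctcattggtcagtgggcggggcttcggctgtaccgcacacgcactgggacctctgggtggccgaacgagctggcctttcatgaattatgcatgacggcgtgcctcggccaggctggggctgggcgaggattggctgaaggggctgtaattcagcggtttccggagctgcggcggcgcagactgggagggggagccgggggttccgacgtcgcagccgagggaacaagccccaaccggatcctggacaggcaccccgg
IL6ST: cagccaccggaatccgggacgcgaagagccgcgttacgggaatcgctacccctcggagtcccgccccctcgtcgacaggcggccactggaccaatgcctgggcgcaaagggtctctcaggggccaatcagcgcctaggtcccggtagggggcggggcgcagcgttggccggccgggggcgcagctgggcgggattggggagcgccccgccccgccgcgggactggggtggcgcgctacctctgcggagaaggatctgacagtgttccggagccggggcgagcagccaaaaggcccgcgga

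At gene ends, 19 of the 43 members had an inflachromene peak and 20 had a DMSO peak. Over all genes the shares were 38.2% in inflachromene and 45.8% in DMSO. All 19 members with an inflachromene peak also had a DMSO peak, NFKBIA alone had a peak in DMSO only, and no member had one in inflachromene only. Of all genes with an inflachromene peak, 4.16% had none in DMSO. Over all genes, 47.4% had a peak in either list, so 20 of 43 (46.5%) lay near the background for the members as a whole. The members differed by role, as the plot of genes by role shows. Factors had a peak in 10 of 12 cases, kinases in 2 of 4, inhibitors in 3 of 3, adaptors and ligases in 2 of 6 and receptors in 1 of 4. Cytokines had one in 2 of 11 cases, and the other induced genes, TNFAIP2, ICAM1 and PTGS2, in none. Counted instead by summits within 1 kb of a listed RefSeq start, 17 of 37 members had an inflachromene peak and 19 a DMSO peak, where 42.1% and 50.2% of all genes did.

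**Figure D1:**
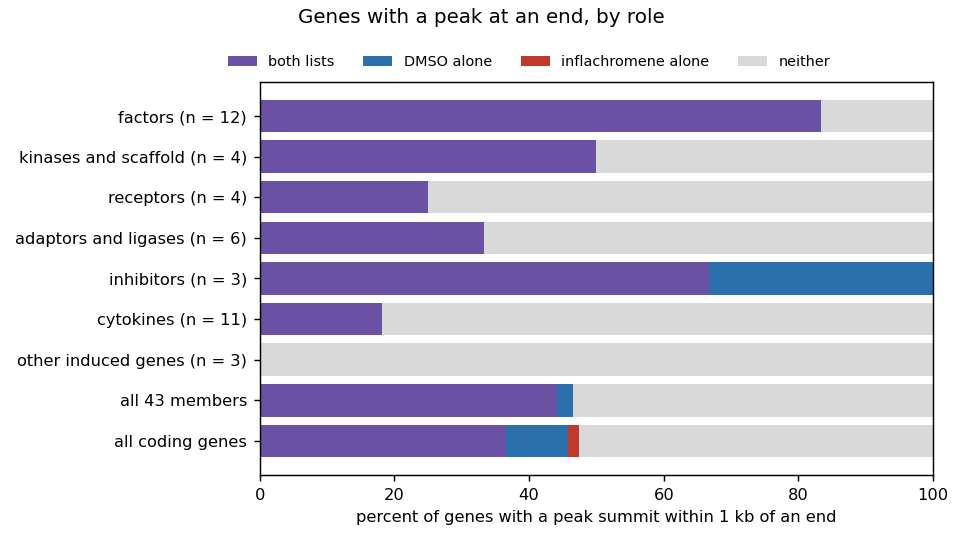
Percent of genes with a peak summit within 1 kb of an end, by role of the member genes, for all 43 members and for all protein-coding genes, divided by whether the peak was in both lists or in 1 of them. Factors reach 83.3% and cytokines 18.2%, while all members (46.5%) lie near all coding genes (47.4%).

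Factors and kinases together had a peak at an end in 12 of 16 genes, against 2 of 11 cytokines. Genes of a list are not replicates, and the difference in counts was not tested. The promoters of the 2 classes also differed in sequence. For genes with several starts in the promoter table, members or not, the start with the most CG dinucleotides was taken. RELA, for example, had starts with 48 and 7 CG. IKBKG, with 35 at most, had its peak at an end near a start with 6. Of 12 factors and kinases with a listed start, 11 had 15 or more CG in the 300 bases around it, and the median was 35.0. Of 9 such cytokines 2 did, and the median was 7. Among all genes with a listed start, an inflachromene peak was present for 53.8% and a DMSO peak for 63.7% of those with at least 15 CG. With 4 or fewer CG the shares were 3.77% in inflachromene and 4.79% in DMSO. The part of CG content in the difference between factors and cytokines was not tested. CXCL8, the cytokine with a peak at its start, had 4 CG. Of the cytokines with no peak at an end, CXCL1 and CXCL2 had 22 CG each, TNF 11, IL1A 8, IL6 7, CSF2 4 and IL1B 2.

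Of the 19 members called in both lists, 16 had fewer fragments at the summit in inflachromene than in DMSO and 3 had more. Over all 7237 genes with a pair of overlapping peaks, 77.7% were lower and 18.0% higher. The members' median ratio (inflachromene pileup over DMSO pileup) was 0.763 and that of all genes 0.821. Inflachromene pileups ran between 12 and 72 fragments with a median of 29.0, and DMSO pileups between 16 and 102 with a median of 40.0. The inflachromene peaks were 250 to 552 bp wide and the DMSO peaks 180 to 828 bp. The lower pileups were thus shared by most genes of these libraries, as the plot of both pileups shows.

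**Figure D2:**
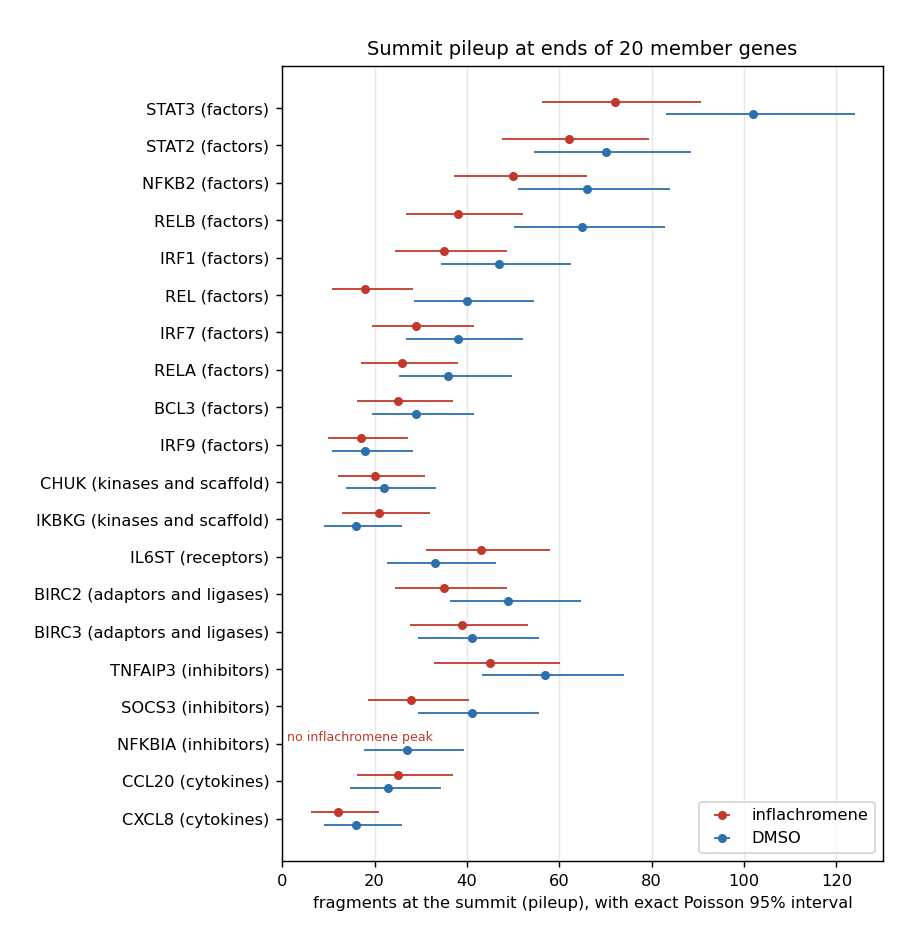
Fragments at the summit (horizontal axis) of the strongest peak at an end of each of the 20 members with a peak, in inflachromene (red, upper of each pair) and in DMSO (blue), with exact Poisson 95% intervals that cover counting error. STAT3 is highest in both lists (72 fragments in inflachromene and 102 in DMSO), and NFKBIA has no inflachromene peak.

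Among the factors, all 10 with a peak had the lower pileup in inflachromene at the paired peak, where 77.7% of all genes were lower. With pileups summed over all peaks at the gene, RELA turned to a ratio of 1.36, RELB to 0.352 and BCL3 to 0.521. STAT3, which transmits signals of the IL-6 family, had the strongest peak of all members, at an own end, on chromosome 17 (DMSO peak 42388415 to 42388932). Its summit held 72 fragments in inflachromene (Poisson 95% interval 56.3 to 90.7) and 102 in DMSO (83.2 to 124). The ratio was 0.706 (exact binomial 95% interval 0.515 to 0.964), the upper bound being equal, at the digits given, to the ratio of fragment numbers. The interval included the median ratio of all genes, 0.821. Both summits lay upstream of the start, by 266 bp in inflachromene and 260 bp in DMSO, just outside the sequence shown.

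Of the 5 subunits of NF-kB, 4 had a peak in both lists. REL, the c-Rel subunit gene on chromosome 2 (DMSO peak 60881356 to 60881691), held 18 fragments in inflachromene (10.7 to 28.4) and 40 in DMSO (28.6 to 54.5). Its ratio of 0.450 (0.243 to 0.803) was the lowest of the members. RELB, a partner of NFKB2 in the non-canonical pathway, held 38 fragments in inflachromene (26.9 to 52.2) and 65 in DMSO (50.2 to 82.8), a ratio of 0.585 (0.381 to 0.886). REL and RELB were the 2 members lower by 1.5-fold or more. Over all paired genes 19.0% were lower by that much and 1.16% higher by it, so 2 of 19 is no more than the background.

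RELB also had weaker DMSO peaks, 1 at each annotated end, that no inflachromene peak overlapped, with 23 and 20 fragments, the second of which also lay at an end of CLASRP. NFKB2 had a peak between its listed starts, with 50 fragments in inflachromene (37.1 to 65.9) and 66 in DMSO (51 to 84.0). A further DMSO peak of 37 fragments, 72 bp upstream of the listed start farthest downstream, had no inflachromene counterpart. RELA, the subunit of the most common activating dimer, had its peak near an internal listed start, with 26 fragments in inflachromene (17 to 38.1) and 36 in DMSO (25.2 to 49.8). RELA also had an inflachromene peak of 23 fragments, 610 bp beyond its 3′ end (65652720 to 65653062 on chromosome 11), that was not called in DMSO. It was the sole peak at a member's own end called in inflachromene without a DMSO counterpart.

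NFKB1, the remaining subunit gene, had no peak in either list, and the nearest peak lay 210 kb away in both. Its promoter is rich in CG (35 in 300 bases) and holds a kappa B match, 49 bases before the start. BCL3, a nuclear protein that binds NF-kB subunits of the NFKB1 and NFKB2 type, had 25 fragments in inflachromene (16.2 to 36.9) and 29 in DMSO (19.4 to 41.6). That peak lay more than 1 kb upstream of the start in the promoter table, by 1129 bp in inflachromene and 1180 bp in DMSO. Nearer to it, 198 bp upstream, a DMSO peak of 19 fragments had no inflachromene counterpart.

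The interferon factors were mixed in strength. STAT2, which takes part with IRF9 in the interferon-activated complex ISGF3, held 62 fragments in inflachromene (47.5 to 79.5) and 70 in DMSO (54.6 to 88.4). IRF9 held 17 in inflachromene (9.90 to 27.2) and 18 in DMSO (10.7 to 28.4), at a position shared with an end of RNF31. IRF1, an interferon-induced factor that is itself a target of NF-kB, held 35 in inflachromene (24.4 to 48.7) and 47 in DMSO (34.5 to 62.5). IRF7, the factor that amplifies type I interferon production, held 29 in inflachromene (19.4 to 41.6) and 38 in DMSO (26.9 to 52.2), at a position shared with an end of CDHR5. The STAT2 position also lay at an end of APOF. IRF3, which is activated below TLR4 and TICAM1, had no peak at an end. A DMSO peak of 23 fragments stood 1179 bp inside its gene, at an end of BCL2L12, and no inflachromene peak was called there.

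**Figure D3:**
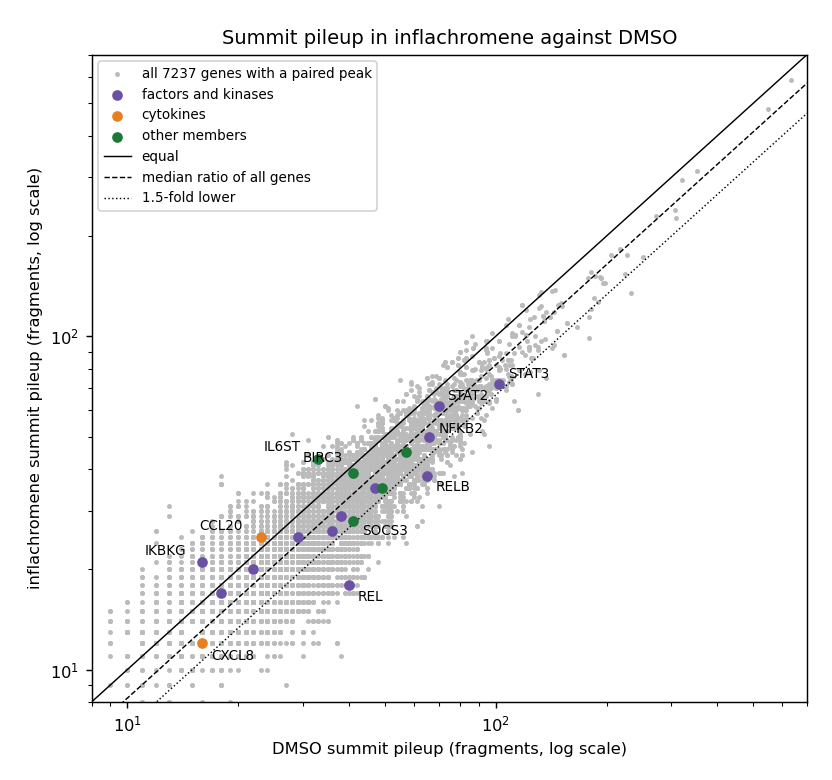
Summit pileup in inflachromene (vertical) against DMSO (horizontal), both on log scales, for 7237 genes with a pair of overlapping peaks at an end (grey) and for the 19 members among them (colours by role); lines mark equality, the median ratio of all genes and a 1.5-fold lower value. REL and RELB lie below the 1.5-fold line, and IL6ST, IKBKG and CCL20 above equality.

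Kinases of the pathway had weak peaks. CHUK, the catalytic IKK subunit also known as IKK alpha, had peaks at both ends in both lists. At its start the summit held 18 fragments in inflachromene (10.7 to 28.4) and 15 in DMSO (8.40 to 24.7). The other end, which ERLIN1 shares, held 20 fragments in inflachromene and 22 in DMSO. The ratio of CHUK, 0.909, was taken from this pair, so CHUK counts among the members lower in inflachromene. IKBKG, the regulatory subunit of IKK, held 21 fragments in inflachromene (13 to 32.1) and 16 in DMSO (9.15 to 26.0), a ratio of 1.31 (0.653 to 2.69). IKBKG was thus higher in inflachromene, with Poisson intervals that overlapped. IKBKB, the second catalytic subunit, had no peak within 50 kb in either list, the nearest being 118 kb away in inflachromene and 59.2 kb in DMSO.

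JAK1, the kinase of interferon and IL-6 family receptors, had no peak at its annotated ends but had one at an internal listed start on chromosome 1 (DMSO peak 64966239 to 64966795). There the summit held 18 fragments in inflachromene (10.7 to 28.4) and 27 in DMSO (17.8 to 39.3). Another 2 DMSO peaks inside JAK1, of 25 and 22 fragments, had no inflachromene counterpart.

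The receptors differed among themselves. IL6ST, the signal-transducing receptor chain shared by the IL-6 family, held 43 fragments in inflachromene (31.1 to 57.9) and 33 in DMSO (22.7 to 46.3). Its ratio of 1.30 (0.809 to 2.12) stood opposite to that of STAT3, the factor downstream of it, but its interval included the median of all genes. The sequence shown for IL6ST holds none of the 3 motifs in capitals and 36 CG, and the summits lay 149 bp upstream of the start in inflachromene and 114 bp in DMSO.

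None of the receptors of extracellular HMGB1 had a peak at an end. For TLR2 the nearest peak was 840 kb away in inflachromene and 340 kb in DMSO. For TLR4 it was 2856 kb away in both lists. AGER, a gene in the dense region of the major histocompatibility complex, had a peak at 2.70 kb in inflachromene and 3.03 kb in DMSO, with 53 fragments in each, at ends of AGPAT1 and RNF5. Expression of these receptors was not measured in these samples.

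Of the 6 adaptors and ubiquitin ligases, 2 had a peak at an end, where 47.4% of all genes had one in either list. By listed starts 3 of the 6 had a peak in each list, where 42.1% of all genes had one in inflachromene and 50.2% in DMSO. BIRC3, a ubiquitin ligase of the TNF receptor complex that NF-kB induces, held 39 fragments in inflachromene (27.7 to 53.3) and 41 in DMSO (29.4 to 55.6), a ratio of 0.951 (0.598 to 1.51). Its neighbour and close relative BIRC2 held 35 in inflachromene (24.4 to 48.7) and 49 in DMSO (36.3 to 64.8), a ratio of 0.714 (0.449 to 1.12). The intervals of both ratios overlapped. BIRC3 carries 2 kappa B matches, 199 and 135 bases before its start, and both its summits lay closer to the start, at 52 bp in inflachromene and 79 bp in DMSO.

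TRAF2, an adaptor of TNF receptors, had a peak that the rule by gene ends missed, at its listed start inside the annotated gene. It held 24 fragments in inflachromene (15.4 to 35.7) and 19 in DMSO (11.4 to 29.7). MYD88, the adaptor of most Toll-like receptors, had a strong peak 1384 bp upstream of its start in inflachromene and 1390 bp in DMSO, at an end of ACAA1. That summit held 62 fragments in inflachromene (47.5 to 79.5) and 79 in DMSO (62.5 to 98.5). TICAM1, the adaptor of TLR3 and TLR4, had an inflachromene peak of 20 fragments 2.79 kb beyond its gene and no DMSO peak there. TRAF1 had no peak nearer than 33512 bp in inflachromene and 33521 bp in DMSO.

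**Figure D4:**
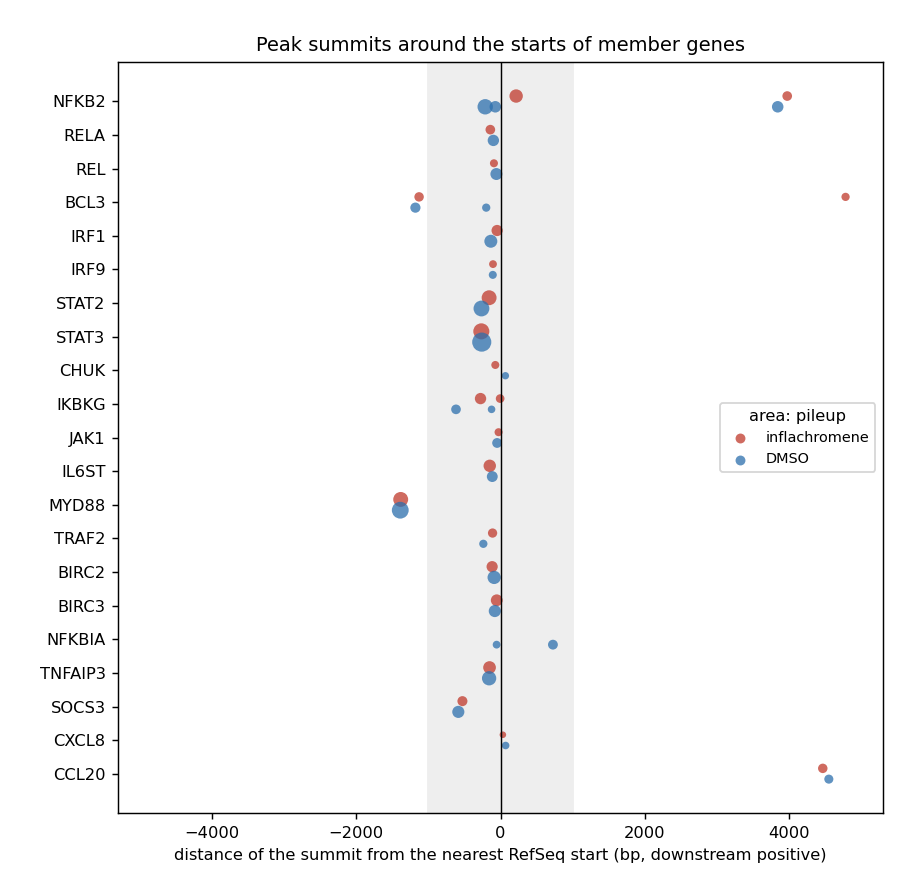
Distance of peak summits from the nearest RefSeq start of each member (bp, downstream positive), within 5 kb, for members with a start in the promoter table; red circles above are inflachromene, blue circles below are DMSO, their area is proportional to the pileup, and the shaded band is 1 kb either side. Most summits lie shortly upstream of a start, MYD88 and BCL3 have one beyond 1 kb upstream, and the CCL20 peak lies more than 4 kb downstream.

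The 3 inhibitors all had a DMSO peak. NFKBIA, on chromosome 14, was the one member whose peaks were called in DMSO only. One summit lay 54 bp upstream of the start with 17 fragments (9.90 to 27.2; peak 35404580 to 35404857), and the other 727 bp downstream with 27 fragments (17.8 to 39.3; peak 35403789 to 35404107). In the inflachromene list the nearest peak was 109 kb away. A missing call is not a count of 0. The lowest pileup with a call in inflachromene was 13 fragments where the local background was 2.5 to 3.5 fragments, the range in which both DMSO peaks lay. Over all genes, 20.2% of those with a DMSO peak had none in inflachromene, against 1 of 20 members, a difference that was not tested. With a window of 2500 bp, 4 of 24 members had a peak in DMSO only. Over all genes at that window, 2004 had a peak in DMSO only and 7944 in both lists. The kappa B match in the NFKBIA sequence starts 81 bases before the start, within the bounds of the first peak.

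The other inhibitors were called in both lists. TNFAIP3, a ubiquitin-editing enzyme that ends NF-kB signalling, held 45 fragments in inflachromene (32.8 to 60.2) and 57 in DMSO (43.2 to 73.9), a ratio of 0.789 (0.522 to 1.19). Its promoter likewise holds kappa B matches, 67 and 55 bases before the start. SOCS3, which blocks JAK kinases, held 28 in inflachromene (18.6 to 40.5) and 41 in DMSO (29.4 to 55.6), a ratio of 0.683 (0.407 to 1.13). TNFAIP3 is thus an NF-kB inhibitor with a peak in both lists, and NFKBIA one with a peak in DMSO only.

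Of the 11 cytokines, CXCL8 and CCL20 had a peak at an end. CXCL8, the neutrophil chemokine interleukin-8, held 12 fragments in inflachromene (6.20 to 21.0) and 16 in DMSO (9.15 to 26.0), just downstream of its start on chromosome 4 (DMSO peak 73740536 to 73740735). It was the weakest pair of the members, and its ratio was 0.750 (0.324 to 1.69). The low local background, 0.994 fragments in inflachromene and 0.731 in DMSO, went with fold enrichments, in the authors' values, of 6.52 in inflachromene and 9.82 in DMSO. The CXCL8 sequence has 4 CG and an AP-1 match 137 bases before the start. It has no match to the exact kappa B letters used, which does not show that it lacks a site for NF-kB.

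CCL20, a chemokine for CCR6-bearing lymphocytes, held 25 fragments in inflachromene (16.2 to 36.9) and 23 in DMSO (14.6 to 34.5), a ratio of 1.09 (0.592 to 2). This peak lay past the gene's 3′ end, 4469 bp downstream of the start in inflachromene and 4553 bp in DMSO, so CXCL8 was the one cytokine with a peak at a start among 9 with a listed start. TNF, LIF, CSF2, IL1A, IL1B, IL6, CXCL1, CXCL2 and CCL2 had none at an end. IL6 had a peak away from gene ends 8.85 kb upstream in inflachromene and 8.82 kb in DMSO, with 17 fragments in inflachromene and 18 in DMSO. CCL2 had a DMSO peak of 17 fragments 2.63 kb away, and its nearest inflachromene peak was 704 kb away.

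Matches to the kappa B consensus stood in promoters of members with and without a peak. Of 37 members with a listed promoter 13 held a match in at least 1 of them. Counted by single promoters, 14 of 51 member promoters and 6.53% of all listed promoters held a match. For TGANTCA it was 5 of 51 and 6.15%, and for the ISRE consensus 2 of 51 and 3.17%. Among the 13, 8 had a peak at an end in either list (BCL3, BIRC3, CCL20, IRF1, NFKB2, NFKBIA, REL and TNFAIP3) and CXCL1, CXCL2, IL6, NFKB1 and TICAM1 had none. Among the 24 without a match, 10 had a peak. The difference was not tested, and the CCL20 peak lay over 4 kb from the promoter that holds its match. Over all genes a peak in either list was present for 50.6% of those with a match and 50.4% of those without. CXCL1 shows the contrast to REL, since both carry a kappa B match shortly before the start, while CXCL1 had no peak within 50 kb. A match to these letters is a description of the sequence and not a measured site, and a missing match does not show that a site is absent.

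Within 50 kb of the gene, 9 members had no peak in either list, which were NFKB1, IKBKB, TLR2, TLR4, CSF2, IL1B, CXCL1, CXCL2 and PTGS2. Of all genes 23.6% had none. Of these 9, 4 were cytokines, and 2 were among the 16 factors and kinases. The median number of peaks within 50 kb was 3 in inflachromene and 4 in DMSO for factors and kinases, and 1 in each list for cytokines. For all genes it was 1 in inflachromene and 2 in DMSO. Peaks at a gene's own ends and at ends of neighbours are included in these numbers. The contrast between the classes is therefore not separate from that at gene ends. Most peaks near IRF9 lay at ends of neighbouring genes, 8 of 9 in each list, and these cannot be credited to IRF9.

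**Figure D5:**
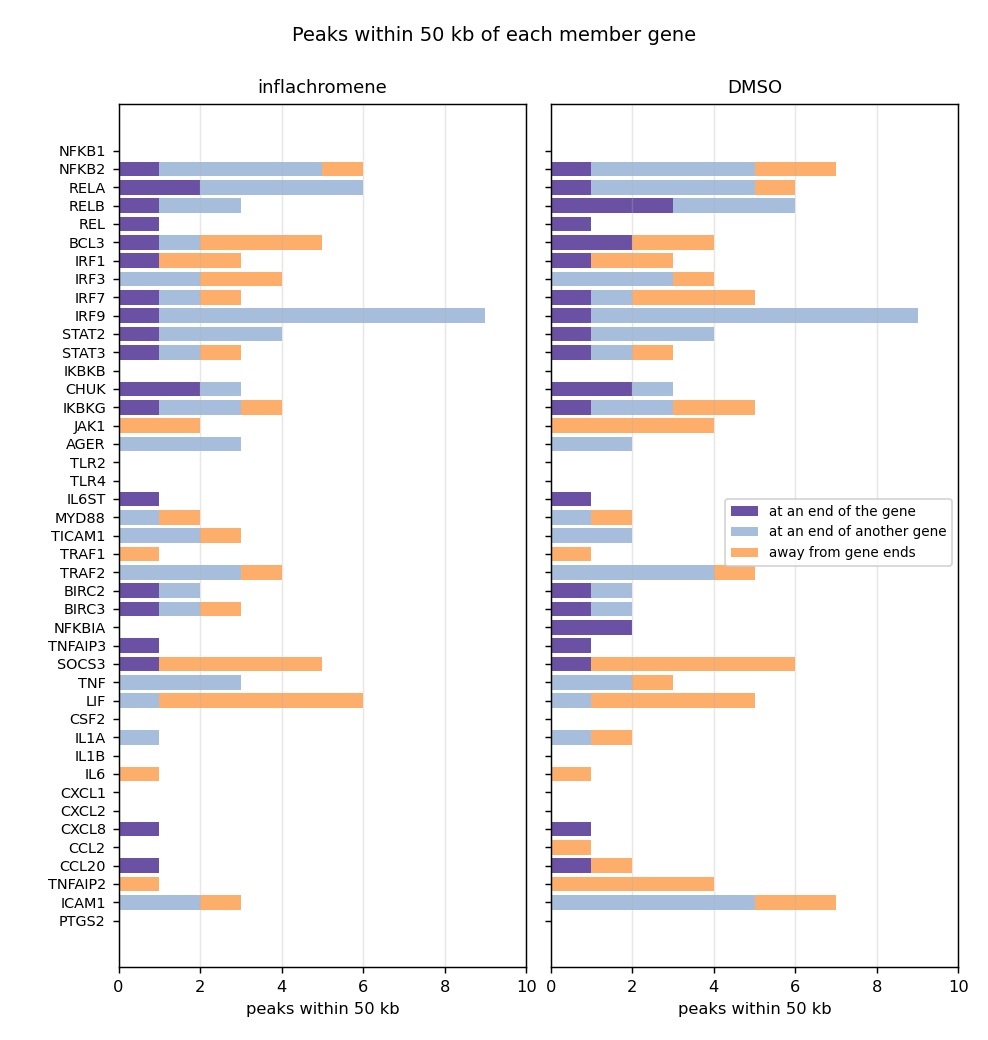
Number of peaks with a summit within 50 kb of each member gene, ordered by role from factors at the top to other induced genes at the bottom, in inflachromene (left) and DMSO (right), divided by whether the summit lay at an end of the gene, at an end of another gene or away from all gene ends. NFKBIA has 2 peaks in DMSO and none in inflachromene, and LIF and SOCS3 each have 4 or 5 peaks away from gene ends in each list.

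Gene ends were the outer ends of protein-coding genes, so peaks at internal listed starts of TRAF2, JAK1 and NFKB2 count as away from them. Away from gene ends, 18 members had a peak within 50 kb in inflachromene and 21 in DMSO, where 32.0% and 43.5% of all genes had one. Near LIF, a cytokine of the IL-6 family, 5 such peaks were called in inflachromene and 4 in DMSO. The strongest, 44043 bp from the gene in inflachromene and 43988 bp in DMSO (DMSO peak 30196158 to 30196816 on chromosome 22), held 35 fragments in inflachromene (24.4 to 48.7) and 44 in DMSO (32.0 to 59.1). Near SOCS3 there were 4 in inflachromene and 5 in DMSO, with 33 fragments in inflachromene and 36 in DMSO at the nearest. IRF1 had a pair of such peaks upstream, at 5619 and 6166 bp in inflachromene and 5719 and 6199 bp in DMSO, with 21 and 19 fragments in inflachromene and 27 and 23 in DMSO. TNFAIP2, an NF-kB-induced gene, had 1 in inflachromene and 4 in DMSO. The one called in both held 33 fragments in inflachromene (22.7 to 46.3) and 47 in DMSO (34.5 to 62.5). TRAF1 had a single one, with 33 in inflachromene and 44 in DMSO.

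Overlap between the lists is given first for peaks away from the ends of protein-coding genes. These include the peaks at internal listed starts of TRAF2, JAK1 and NFKB2. Near members, 21 of 30 inflachromene peaks away from gene ends (70.0%) overlapped a DMSO peak, and 21 of 41 DMSO peaks (51.2%) overlapped an inflachromene peak. Over all peaks away from gene ends the shares were 84.0% of the inflachromene peaks and 50.7% of the DMSO peaks. At the members' own ends, 20 of 21 inflachromene peaks and 20 of 25 DMSO peaks were overlapped, where 94.5% and 76.2% of all peaks at gene ends were.

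Members without a peak at their own ends often lay near strong peaks of neighbours, which cannot be credited to them. The strongest within 50 kb of AGER, at ends of GPSM3 and NOTCH4, held 66 fragments in inflachromene and 72 in DMSO. For IRF3 it lay at ends of RRAS and SCAF1, with 75 in inflachromene and 65 in DMSO. For TNF it lay at an end of DDX39B, with 48 in inflachromene and 65 in DMSO. These 3 neighbours' peaks were stronger than most peaks at members' own ends. For LIF the strongest inflachromene peak, at an end of CASTOR1, held 41 fragments, and the DMSO peak overlapping it held 44. For IL1A it lay at an end of CKAP2L, with 28 in inflachromene and 31 in DMSO, and for TICAM1 at an end of FEM1A, with 28 in inflachromene and 48 in DMSO. For TRAF2 it lay at ends of AJM1 and PHPT1, with 45 in inflachromene and 47 in DMSO. ICAM1, an adhesion molecule that NF-kB induces, had its strongest inflachromene peak at ends of RAVER1 and ICAM3, with 23 in inflachromene and 33 in DMSO. Its strongest DMSO peak, at an end of MRPL4, held 34 fragments, and the inflachromene peak overlapping it held 18. The DMSO peak nearest to ICAM1, at an end of ICAM4, held 22 fragments and had no inflachromene counterpart. For JAK1 the strongest lay inside the gene, with 22 in inflachromene and 28 in DMSO.

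A wider list of 45 further genes of these pathways was examined in the same way. At their ends 20 were called in inflachromene and DMSO alike, 5 in DMSO only and none in inflachromene only, and 25 of 45 (55.6%) had one in either list, where 47.4% of all genes did. Of all genes with a DMSO peak, 20.2% had it in DMSO only. Genes with a peak in DMSO only were TRAF6, TAB3, IFNAR1, IFNAR2 and IL18, with 15, 14, 14, 16 and 28 fragments. The TRAF6 peak also lay at an end of RAG1. Of 19 with a pair of overlapping peaks 16 were lower in inflachromene and 2 higher, with a median ratio of 0.875, where 77.7% of all paired genes were lower and the median was 0.821. IRAK4, RIPK1, TAB1 and IFNGR1 were lower by 1.5-fold or more, where 19.0% of all paired genes were, and the 95% intervals of all 4 ratios included 1. RIPK1, a kinase of the TNF receptor complex, held 22 fragments in inflachromene and 37 in DMSO, a ratio of 0.595 (0.334 to 1.03). TBK1, the kinase that activates IRF3, held 21 in inflachromene and 16 in DMSO. The secreted or interferon-induced genes CXCL3, CXCL5, CXCL10, IL11, IL15, IFIT1, IFIT3, MX1 and OAS1 had no peak at an end. ISG15 was the interferon-induced gene with one, holding 21 fragments in inflachromene and 23 in DMSO.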

How the data were processed

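PANC-1 cells given inflachromene or DMSO (1 sample each) were profiled by ChIPmentation. The submitters' processing notes name MACS2, deepTools 3.5.6 and hg38; the MACS2 version, the aligner and the handling of duplicates were not stated there. The authors deposited, for each peak, an integer score (not used), a fold enrichment (summit over local background) and the −log10 p-value and q-value. The lowest deposited −log10 q was 3.01 in inflachromene and 3.02 in DMSO.

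The whole-number pileup that gives both the fold enrichment and the Poisson p-value under MACS2's formulas, within 0.001 in −log10 p, was found for all 10836 inflachromene and 15186 DMSO peaks on chromosomes 1 to 22 and X. On simulated data it was found for all 2000 summits; these were made with the same formulas and do not test them. Fragment lengths of 165.7 bp in inflachromene and 152.4 bp in DMSO, and the ratio of fragment numbers, were inferred from the local backgrounds.

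A gene had a peak in a list where a summit lay within 1000 bp of an annotated end, or where a peak overlapped such a peak of the other list. The ratio compares the strongest DMSO peak at an end with the inflachromene peak overlapping it, unscaled for depth. Pileups carry exact Poisson and ratios exact binomial 95% intervals. With 1 sample per group no test was made. Promoters and starts came from RefSeq (GRCh38.p14) for 37 of the 43 members. Members and lists were chosen with earlier results of these data known. Each member was named; genes of the wider list were named where called in DMSO only or past 1.5-fold, and TBK1, ISG15 and those without a peak after their values were seen. Python 3.11.15 and scipy 1.17.1 were used. Alternatives were a 2500 bp window, own summits only, a −log10 q of at least 5, equal list lengths, other overlap rules, other ratios and other distances.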

Additional observations from a re-analysis of the deposited data

How the results depend on the processing

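No paired analysis was possible because each treatment had 1 sample. The 43 members kept 18 to 20 genes with a peak in both lists under all alternatives for that count. With a window of 2500 bp, 4 members in place of 1 had a peak in DMSO only (NFKBIA with ICAM1, LIF and IRF3), and MYD88 had one in both. Over all genes 2004 in place of 1850 had a peak in DMSO only at that window. With lists of equal length, IKBKG lost its DMSO peak and 1 member had a peak in inflachromene only. Over all genes at that setting, 894 had a peak in inflachromene only and 873 in DMSO only. With the full lists these counts were 317 and 1850. Lists of equal length leave about as many unmatched peaks in each, so similar counts follow from the setting itself and are no result. By listed starts, an alternative chosen after seeing the data, 1 of 9 cytokines had a peak, as did 11 of 12 factors and kinases. Within 25 kb the peaks not at a member's own end numbered 41 in inflachromene and 48 in DMSO, against 77 and 91 within 50 kb. Counted only where the member's end was the nearest, they numbered 15 in inflachromene and 18 in DMSO, at 10 and 11 members.

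The median ratio of the members lay between 0.763 and 0.835 under the other ratios. Summed over all peaks at the gene, the ratio was 1.36 at RELA, which has an inflachromene peak at its 3′ end, and 0.352 at RELB. Under that setting BCL3 also passed 1.5-fold lower (0.521), CHUK stood at 1.03, and 14 members were lower and 5 higher. By fold enrichment, CXCL8 also passed 1.5-fold lower, BIRC3 stood above 1 and CCL20 below it. With pileups this small, most ratios of single members have intervals that include the ratio of fragment numbers. The intervals of REL and RELB lay below it, and that of STAT3 touched it. The median ratio of all paired genes, 0.821, lay within the intervals of RELB and STAT3 and above that of REL (0.243 to 0.803). How many of all genes had an interval below the ratio of fragment numbers was not counted.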

Other observations

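Near the members, 9 inflachromene peaks away from gene ends had no DMSO counterpart. LIF had 3 of them, with 20, 16 and 17 fragments at 29946, 11528 and 11162 bp from the gene. STAT3 had one inside the gene (42322897 to 42323071 on chromosome 17) with 22 fragments, and BCL3 one inside the gene (44753358 to 44753583 on chromosome 19) with 19. SOCS3 had one of 24 fragments 25900 bp away. TICAM1 had one of 20 fragments, IRF3 one of 15 and BIRC3 one of 17. At IKBKG, a DMSO peak of 26 fragments 6275 bp upstream had no inflachromene counterpart.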
